A study of Mus musculus with 12 samples.

Results

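Of the genes that bear on whether a neutrophil lives or dies, 9 were followed through the neutrophil response to acute liver injury in mice. They were chosen by name, with earlier results of these data known, and all are reported: 5 anti-apoptotic genes (Mcl1, Bcl2a1a, Bcl2a1b, Bcl2a1d and Bcl2l1) and 4 pro-apoptotic genes (Bcl2l11, Bbc3, Bax and Bak1), which are 9 of the 48709 gene rows in the count table. The table holds RNA-seq counts of 12 libraries of sorted neutrophils from male C57BL/6N mice of 8 to 10 weeks. Control splenic neutrophils (n = 3) came from untreated animals, whereas 24-hour neutrophils (n = 4) and 72-hour neutrophils (n = 5) came from the liver after 1 intraperitoneal injection of the liver toxin carbon tetrachloride (CCl4, 1 mL/kg in corn oil). Cells of all groups were enriched with anti-Ly6G beads and then sorted by flow cytometry for high Ly6G and intermediate Ly6C among CD45+ CD11b+ cells. Livers, unlike spleens, were also digested with enzymes and passed over a Percoll gradient, so in every comparison with spleen the organ, the toxin and the isolation cannot be told apart. The labels do not say that each library came from its own animal, and p-values then measure only the spread between these libraries, which may be technical.

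Neutrophils are short-lived cells whose survival hangs on the BCL-2 family at the mitochondrial outer membrane. MCL-1, A1 (encoded in the mouse by the Bcl2a1 copies) and BCL-xL (encoded by Bcl2l1) hold cell death back. BH3-only proteins such as BIM (Bcl2l11) and PUMA (Bbc3) sense stress and oppose them, and the effectors BAX and BAK then open the membrane and release cytochrome c. MCL-1 and A1 are the guardians best known in neutrophils, both turn over quickly, and A1 is a classical target of inflammatory signals.

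The mouse A1 copies are nearly the same sequence, which bears on every value given for them. Bcl2a1a (ENSMUSG00000102037.1, chr9:88956900-88962419, plus strand), Bcl2a1b (ENSMUSG00000089929.1, chr9:89199209-89207827, plus strand) and Bcl2a1d (ENSMUSG00000099974.1, chr9:88723285-88731914, minus strand) lie in 1 stretch of chromosome 9 in GRCm38. Of their 516 coding bases, 11 differed between Bcl2a1a and Bcl2a1b (97.9% identical), 7 between Bcl2a1a and Bcl2a1d (98.6%) and 6 between Bcl2a1b and Bcl2a1d (98.8%). The first 90 coding bases hold the most differences of any such stretch, and they are shown to let the copies be compared, with the 6 positions at which the copies are not all alike in capitals.
Bcl2a1a, chr9:88957051-88957140, plus strand: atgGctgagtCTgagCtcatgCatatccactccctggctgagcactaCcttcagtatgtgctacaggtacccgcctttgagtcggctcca
Bcl2a1b, chr9:89199360-89199449, plus strand: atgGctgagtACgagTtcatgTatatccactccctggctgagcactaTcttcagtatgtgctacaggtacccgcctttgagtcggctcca
Bcl2a1d, chr9:88731630-88731719, minus strand: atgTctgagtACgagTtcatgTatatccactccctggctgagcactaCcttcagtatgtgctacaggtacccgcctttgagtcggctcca

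A read that falls outside such positions matches more than 1 copy and is not assigned to any of them by a counter that keeps uniquely aligned reads. Of all 100-base windows in the annotated transcript, the read length of the study, 43.5% of Bcl2a1a, 56.8% of Bcl2a1b and 54.7% of Bcl2a1d also occurred in another gene. For Bcl2a1b the share that occurred in another Bcl2a1 copy was 31.1%, the rest being shared with the annotated gene Gm29094, which covers 401 of its exon bases on the same strand and had 0 counts in every library. The share in another gene was 0% for Mcl1, Bcl2l1, Bcl2l11 and Bbc3, 9.49% for Bax (with Gm45808, also at 0 counts in every library) and 10.7% for Bak1 (with Ggnbp1). Gm29094, Gm45808 and Ggnbp1 overlap these genes in place, so a read there need not align at several places. Gm29094 and Gm45808 lie on the same strand as Bcl2a1b and Bax, so reads there may instead have been set aside as lying on more than 1 gene. How far this lowered the counts of Bcl2a1b and Bax was not tested. Windows were searched singly and on both strands, whereas the reads were paired, so these are not shares of reads lost.

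The copies also share the sequence before their start. The stretches are shown because the copies are later described together, and capitals mark the letters TGANTCA, a relaxed form of the AP-1 motif that takes any base in its middle, and GAGGAAGT, a core of the PU.1 motif. They come from RefSeq on GRCm38.p6, and Bcl2a1c, a more distant copy, is shown for contrast.
Bcl2a1a, chr9:88956780-88956849, plus strand: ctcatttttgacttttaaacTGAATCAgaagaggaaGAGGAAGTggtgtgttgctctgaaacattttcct
Bcl2a1b, chr9:89199089-89199158, plus strand: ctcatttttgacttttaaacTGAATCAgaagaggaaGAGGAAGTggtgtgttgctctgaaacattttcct
Bcl2a1d, chr9:88731915-88731984, minus strand: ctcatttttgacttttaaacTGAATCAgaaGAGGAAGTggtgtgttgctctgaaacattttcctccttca
Bcl2a1c, chr9:114329885-114329954, plus strand: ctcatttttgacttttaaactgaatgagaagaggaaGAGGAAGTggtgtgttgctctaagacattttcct

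Searched on both strands, TGANTCA occurred in 7.81% of 32851 RefSeq promoter windows. These are the full windows from which the stretches shown were cut, so the share is not that of such short stretches. TGANTCA was in those of Bcl2a1a, Bcl2a1b and Bcl2a1d, and in no window of the other 6 genes or of Bcl2a1c. The base in its middle was A in the copies, where the usual AP-1 motif has C or G. GAGGAAGT occurred in 3.20% of all windows, in those of Bcl2a1a, Bcl2a1b, Bcl2a1d and Bcl2a1c, and in that of Bak1. The marked letters do not overlap in the sequences shown. A match is a description of the sequence only.

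The depth and the counting limit all values. Counts on genes were between 1267089 and 3017403 per library, and 96.8% to 97.3% of uniquely aligned reads lay on no gene. The kit was stranded and the strand setting of the counter is not given in the sources used here. Overlap of exons with exons on the other strand was found for all 20 of the most counted genes, compared with 39.9% of tested genes. S100a8 and S100a9, whose products are among the most abundant of neutrophils, were at 59.8 to 1372 and 215 to 3969 normalized CPM (counts scaled by library size and TMM factor). Reads of a gene's own strand and of the opposite strand cannot be told apart in this table, which limits all fold changes and calls as well as levels. Replicates 2 and 3 of the 72-hour group stood apart in the summary rows, with 1.91% and 1.98% of reads unaligned against 49.6% to 50.7% elsewhere and 7.81% and 8.38% of aligned reads at several places against 1.88% to 2.84%, and they were the deepest libraries. Replicate 4 of the 24-hour group had 0.227% of its unique reads on more than 1 gene, against at most 0.0368% elsewhere. No 2 libraries agreed within sampling noise (the closest were spleen replicates 1 and 2, with a chi-square per degree of freedom of 2.34).

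All 12 neutrophil markers passed the filter on low counts, with summed levels of 1992 to 7455, 1293 to 2924 and 2234 to 3146 CPM in spleen, 24-hour and 72-hour libraries. Markers of immature neutrophils (5 of 8 tested, Elane at 0 in every library) summed to 3982, 3939 and 600 CPM in the spleen libraries, 16.05 to 77.6 CPM at 24 hours and 10.3 to 42.4 CPM at 72 hours. Hepatocyte markers (2 of 7 tested, Ttr at 0 in every library) summed to at most 0.362 CPM in spleen and 2.92 CPM at 24 hours, whereas 72-hour replicates 2 and 3 reached 7.25 and 19.5 CPM. Macrophage or monocyte markers (3 of 8 tested, C1qa and Clec4f at 0) summed to 94.6 to 131, 132 to 187 and 122 to 188 CPM. The highest sums in any library were 64.0 CPM for B cells, 7.07 CPM for T cells (Cd3e and Cd4 at 0), 14.9 CPM for endothelial cells (Kdr and Cdh5 at 0) and 5.84 CPM for erythroid cells (Hbb-bs and Hba-a1 at 0). The part of these differences in the results was not tested.

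All calls among the 9 genes were of anti-apoptotic ones, the near-copies Bcl2a1a and Bcl2a1b among them. Each of these calls was lost in some of the fits that left out 1 library. Outside the 9, the pro-apoptotic gene Pmaip1 was called higher at 72 hours than in spleen. Mcl1, Bcl2a1a and Bcl2a1b had higher levels at 72 hours than in spleen, Bcl2l1 was higher in 24-hour neutrophils, and none of the 4 pro-apoptotic genes passed the test in any comparison. The test was edgeR's quasi-likelihood test over all genes with more than 1 CPM in at least 3 libraries, and calls needed both an adjusted p below 0.05 and a log2 fold change of at least 0.5 in size. At 24 hours 1 of the 9 genes was called higher and 0 lower against spleen, beside 9.75% of the 12488 tested genes called in either direction (5.35% higher, 4.4% lower). At 72 hours 3 of 9 were called higher and 0 lower, beside 5.33% of tested genes (2.63% higher, 2.71% lower). Of these 3, Bcl2a1b had passed the filter on low counts only through the 72-hour libraries, so that its call is a description. Between 72-hour and 24-hour neutrophils 0 of 9 were called, beside 4.49% of tested genes (1.65% higher, 2.84% lower). In that last comparison 2 of the 9, Bcl2a1d and Bcl2a1b, had an unadjusted edgeR p below 0.05 (0.00227 and 0.0266), beside 20.9% of tested genes, and DESeq2 and limma-voom each called 1, Bcl2a1d. Both copies had passed the filter only through the 72-hour libraries, so these values are descriptions.

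The median log2 fold change of the 5 anti-apoptotic genes was 2.08 at 24 hours and 2.72 at 72 hours against spleen and 1.63 between the times. That of the 4 pro-apoptotic genes was -0.01, 0.30 and 0.24, and that of all tested genes was -0.23, -0.02 and 0.18. Each anti-apoptotic median is the value of 1 Bcl2a1 copy that was not called, Bcl2a1a at 24 hours and between the times and Bcl2a1d at 72 hours. The medians of both sets are descriptions of few genes, 3 of them near-copies of each other, and no contrast between the sets is drawn from them. Both comparisons with spleen share the same 3 control libraries. All 9 genes passed the filter on low counts, although Bcl2a1b exceeded 1 CPM in only 5 libraries, 4 of them from 72 hours. Bcl2a1d did so in 6, also with 4 of them from 72 hours, so both passed only through that group.

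**Figure D1:**
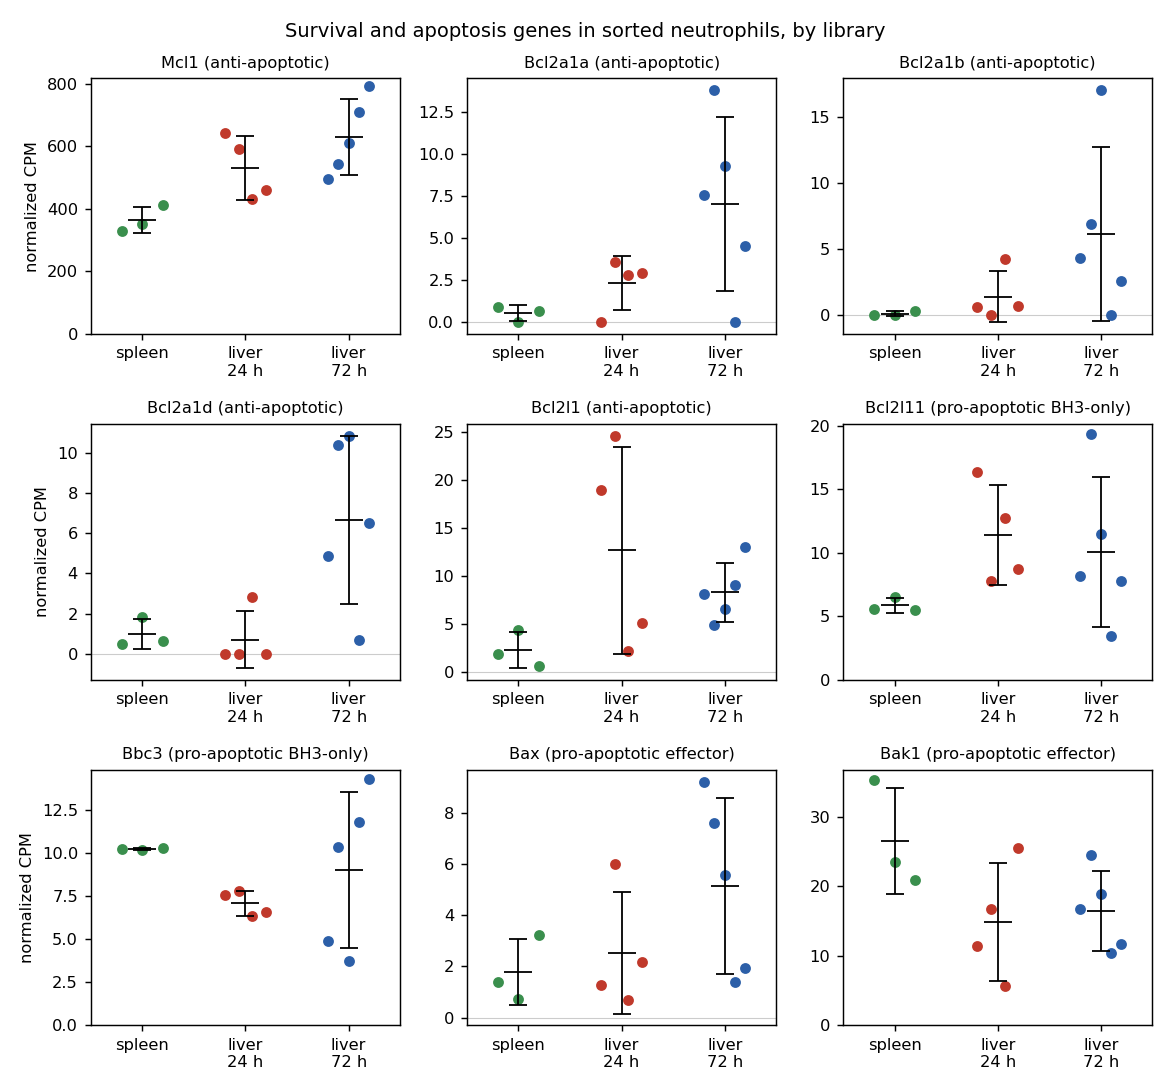
Normalized CPM (linear axis) of the 9 genes in control splenic (green, n = 3), 24-hour (red, n = 4) and 72-hour (blue, n = 5) neutrophils. Each point is 1 library, in the order of the replicate number, and bars are the mean ± SD. All liver libraries lie above the spleen libraries for Mcl1, whereas the points of Bcl2a1a, Bcl2a1b and Bcl2a1d spread from 0 or near 0 to their highest values within the 72-hour group.

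Mcl1 (ENSMUSG00000038612.16, chr3:95658788-95663176, plus strand) encodes MCL-1, the BCL-2 family member on which neutrophils depend most. Its level was 330, 352 and 412 CPM in the spleen libraries. It was 642, 591, 430 and 461 CPM in 24-hour replicates 1 to 4, and 496, 544, 612, 710 and 794 CPM in 72-hour replicates 1 to 5. Every liver library was thus higher than every spleen library, while the liver groups overlapped each other. Fewer cells of a kind and less RNA per cell cannot be told apart in such bulk samples.

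The group means of Mcl1 were 365 ± 42.4 (SD, n = 3), 531 ± 102 (SD, n = 4) and 631 ± 121 CPM (SD, n = 5). At 72 hours Mcl1 was 1.73-fold higher than in spleen (log2 fold change 0.79, standard error 0.22, edgeR adjusted p = 0.0327), with a 95% interval of 0.34 to 1.24 on the log2 scale. At 24 hours the log2 fold change of 0.54 (standard error 0.22, 95% interval 0.08 to 1.003) did not pass, with an edgeR adjusted p = 0.126. The difference between the times was 0.25 (95% interval -0.15 to 0.65, edgeR adjusted p = 0.492). Leaving out spleen replicate 1 (edgeR adjusted p = 0.182) or 2 (0.158) or 72-hour replicate 3 (0.0533) or 5 (0.0629) ended this call, as did leaving out both 72-hour replicates 2 and 3 (0.0568), at log2 fold changes of 0.69 to 0.87.

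The Bcl2a1 copies had few counts in most libraries. Bcl2a1a had 2, 0 and 2 counts in spleen, 0, 6, 4 and 4 at 24 hours, and 14, 40, 30, 0 and 7 at 72 hours. Bcl2a1b had 0, 0 and 1 counts in spleen, 1, 0, 6 and 1 at 24 hours, and 8, 20, 55, 0 and 4 at 72 hours. Bcl2a1d had 1, 5 and 2 counts in spleen, 0, 0, 4 and 0 at 24 hours, and 9, 30, 35, 1 and 10 at 72 hours. In each copy 72-hour replicates 2 and 3 held the highest counts and replicate 4 of the same group held 0 or 1, so the groups overlapped. At these depths 1 count was worth 0.310 to 0.729 CPM.

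**Figure D2:**
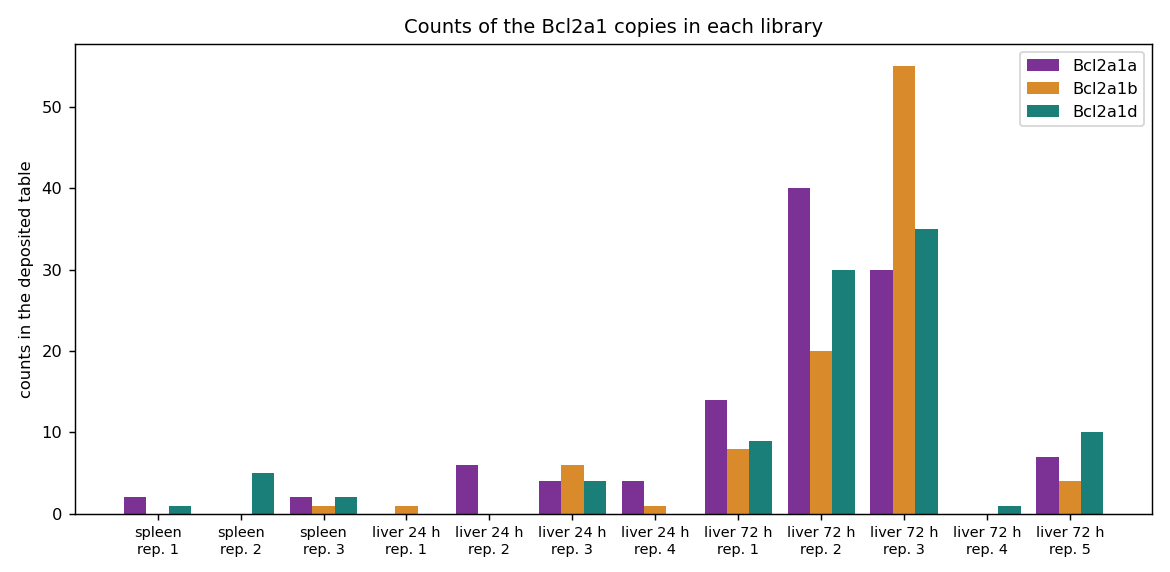
Counts (linear axis, as deposited) of Bcl2a1a, Bcl2a1b and Bcl2a1d in each of the 12 libraries. The tallest bars are in 72-hour replicates 2 and 3 (20 to 55 counts), while 72-hour replicate 4 held 0, 0 and 1 counts and no spleen library held more than 5 of a copy.

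Bcl2a1a and Bcl2a1b were called higher at 72 hours than in spleen, with fitted log2 fold changes of 3.71 (standard error 1.02, edgeR adjusted p = 0.0333) and 5.17 (standard error 1.31, edgeR adjusted p = 0.0196). Because spleen held 4 and 1 counts of them over 3 libraries, these fitted sizes are no bounds. Bcl2a1b was tested only because 4 of its 5 libraries over 1 CPM were from 72 hours, and filterByExpr removed it, so its call supports nothing beyond its counts. From the summed counts, the rate at 72 hours was 16.7 times that in spleen for Bcl2a1a (95% interval 6.29 to 62.5) and 63.8 times for Bcl2a1b (11.1 to 2547), where the intervals are exact binomial and cover counting error only, as reads without molecular identifiers are not independent molecules. Bcl2a1d had a ratio of 7.79 (3.78 to 18.6) and a fitted log2 fold change of 2.72 (standard error 0.90), which did not pass (edgeR adjusted p = 0.0877). It passed with DESeq2 (adjusted p = 0.0492), without a filter (edgeR adjusted p = 0.0205), with the replicate number as a block (0.0312) and without 72-hour replicate 4 (0.0327), at log2 fold changes of 2.71 to 3.11. All 3 copies had a fitted value above 0 at 72 hours against spleen. Bcl2a1d, like Bcl2a1b, was in the main test only through the 72-hour libraries, so its passes are descriptions too.

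Against spleen at 24 hours none of the copies was called. Their fitted log2 fold changes were 2.08 for Bcl2a1a (edgeR adjusted p = 0.247), 2.96 for Bcl2a1b (0.224) and -0.52 for Bcl2a1d (0.821), from 14, 8 and 4 counts in all 4 libraries. The fitted sign of Bcl2a1d turned to 0.23 without spleen replicate 2. Between 72-hour and 24-hour neutrophils Bcl2a1d had the largest difference, 3.24 (standard error 0.94), at an edgeR adjusted p = 0.0501 that just missed the threshold. It passed without 72-hour replicate 4 (3.51, edgeR adjusted p = 0.0255) or spleen replicate 3 (3.24, 0.0392), with filterByExpr (3.24, 0.0465), without a filter (3.24, 0.00548) and with the replicate block (3.37, 0.0363). Without 24-hour replicate 3, the 1 library at 24 hours with counts of this copy, the 24-hour group was at 0 counts and the fitted value of 6.89 is no measure of size. Bcl2a1d exceeded 1 CPM in 6 libraries, 4 of them from 72 hours. It thus passed the filter on low counts only through the group where it is high, and these passes are descriptions. Bcl2a1a and Bcl2a1b differed between the times by 1.63 (edgeR adjusted p = 0.246) and 2.21 (edgeR adjusted p = 0.175), which did not pass.

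The call of Bcl2a1a at 72 hours was lost without any 1 of spleen replicates 1, 2 and 3 or 72-hour replicates 1, 2 and 3 (edgeR adjusted p from 0.0622 to 0.183, log2 fold changes from 3.14 to 4.21) and with limma-voom (3.35, adjusted p = 0.112). For Bcl2a1b the libraries whose removal ended the call were spleen replicates 1 (4.84, edgeR adjusted p = 0.102) and 2 (4.73, 0.122) and 72-hour replicate 3 (4.31, 0.0925). Without spleen replicate 3, which held its 1 count in spleen, the spleen group was at 0 and the fitted value of 6.72 is no measure of size. With 72-hour replicates 2 and 3 both left out, the fitted log2 fold changes were 2.87 and 3.70 and the edgeR adjusted p-values were 0.310 and 0.295. These replicates also held the most reads aligned at several places and the highest hepatocyte marker sums, and the part of either in the counts of the copies was not tested.

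Summing the 3 copies removes the question of which copy a read came from, though not the loss of reads that match several places or lie on more than 1 gene. The sum was 1.39, 1.81 and 1.61 CPM in spleen and 0.631, 3.60, 9.90 and 3.65 CPM in 24-hour replicates 1 to 4. At 72 hours it was 16.8, 31.1, 37.1, 0.695 and 13.6 CPM in replicates 1 to 5. Apart from replicate 4, the 72-hour libraries lay above every spleen and 24-hour library, and replicate 4 lay below every spleen library. The sum was called higher at 72 hours than in spleen (log2 fold change 3.61, standard error 0.80, edgeR adjusted p = 0.00671). By pooled counts its rate was 14.8 times that in spleen (95% interval 8.52 to 28.2), where the interval covers counting error only and not the spread between libraries. The edgeR call of the sum held in each of the 12 fits that left out 1 library (edgeR adjusted p at most 0.0478). It was lost with limma-voom (3.09, adjusted p = 0.135) and, at a smaller fold, with 72-hour replicates 2 and 3 both left out (2.66, edgeR adjusted p = 0.131). At 24 hours the sum did not pass (1.41, edgeR adjusted p = 0.317), nor did it between the times (2.20, edgeR adjusted p = 0.0581). The difference between the times passed with DESeq2 (2.14, adjusted p = 0.0289), with the replicate block (2.11, edgeR adjusted p = 0.0310) and without spleen replicate 3 (2.21, 0.0451), 24-hour replicate 3 (2.94, 0.0387) or 72-hour replicate 4 (2.496, 0.0107).

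Gm10634, a gene annotated as antisense, spans Bcl2a1d on the opposite strand without sharing exon bases with it, and had more counts than Bcl2a1d in every library (81 to 675). Its level was 40.5 to 115 CPM in spleen and 48.6 to 127 CPM at 24 hours. At 72 hours it was 96.5, 231, 209, 60.4 and 65.5 CPM in replicates 1 to 5, so that replicates 2 and 3 were highest for this gene as well.

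Bcl2l1 (ENSMUSG00000007659.18, chr2:152780668-152831728, minus strand) encodes BCL-xL. It had 1.86, 4.35 and 0.643 CPM in spleen (4, 12 and 2 counts). It had 18.9, 24.6, 2.12 and 5.11 CPM in 24-hour replicates 1 to 4, and 8.13, 4.84, 6.50, 9.03 and 13.0 CPM in 72-hour replicates 1 to 5. Replicates 1 and 2 of the 24-hour group were the highest of all libraries and replicate 3 lay among the spleen values, whereas every 72-hour library was above every spleen library.

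The log2 fold change of Bcl2l1 at 24 hours was 2.47 (standard error 0.72, 95% interval 0.98 to 3.96, edgeR adjusted p = 0.0313). The fold at 72 hours, 1.81 (standard error 0.70, 95% interval 0.37 to 3.26), did not pass (edgeR adjusted p = 0.154), and the times differed by -0.66 (95% interval -1.81 to 0.50, edgeR adjusted p = 0.532). Its call ended when spleen replicate 1 (2.36, edgeR adjusted p = 0.111) or 3 (1.999, 0.0936) or 24-hour replicate 1 (2.22, 0.0803) or 2 (1.93, 0.115) was removed, with limma-voom (2.31, adjusted p = 0.0955) and in the fit of those groups alone (2.48, edgeR adjusted p = 0.0604). Without spleen replicate 2, the highest of the controls, the value was 3.37 (edgeR adjusted p = 0.0307). Bcl2l1 thus passed at 24 hours and not at 72 hours, and the test of the difference between the times did not pass.

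Of the BH3-only genes, Bcl2l11 (ENSMUSG00000027381.16, chr2:128126038-128162547, plus strand), which encodes BIM, had 5.57, 6.52 and 5.47 CPM in spleen. It had 16.4, 7.80, 12.7 and 8.75 CPM in the 24-hour replicates, all above spleen, and 8.13, 19.3, 11.5, 3.47 and 7.79 CPM in the 72-hour replicates, which overlapped spleen through replicate 4. Neither log2 fold change passed: 0.96 at 24 hours (95% interval -0.09 to 1.999, edgeR adjusted p = 0.230) and 0.81 at 72 hours (-0.17 to 1.80, edgeR adjusted p = 0.421). The times differed by -0.14 (edgeR adjusted p = 0.885), a sign that turned without 24-hour replicate 1 or 72-hour replicate 4.

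Bbc3 (ENSMUSG00000002083.13, chr7:16308393-16318205, plus strand) encodes PUMA, a mediator of p53-dependent death. It had 10.2, 10.1 and 10.3 CPM in spleen and 7.57, 7.80, 6.36 and 6.57 CPM at 24 hours, so these groups did not overlap. At 72 hours it had 4.88, 10.4, 3.71, 11.8 and 14.3 CPM, from the lowest to the highest value of all libraries. With 9 to 32 counts per library, the log2 fold changes of -0.52 at 24 hours (95% interval -1.50 to 0.46, edgeR adjusted p = 0.516) and -0.21 at 72 hours (-1.12 to 0.70, edgeR adjusted p = 0.892) were within the error, and so was the difference of 0.31 between the times (edgeR adjusted p = 0.725).

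The effector Bax (ENSMUSG00000003873.11, chr7:45461697-45466898, minus strand) had 1 to 22 counts per library. It was at 1.39, 0.725 and 3.22 CPM in spleen, 1.26, 5.999, 0.707 and 2.19 CPM at 24 hours and 9.22, 7.60, 5.57, 1.39 and 1.95 CPM at 72 hours. Replicates 1 to 3 of the 72-hour group were above every spleen library and replicates 4 and 5 lay among them. Its log2 fold changes of 0.50 at 24 hours (edgeR adjusted p = 0.752) and 1.51 at 72 hours (95% interval -0.05 to 3.08, edgeR adjusted p = 0.316) did not pass, nor did the difference of 1.01 between the times (edgeR adjusted p = 0.426). The sign at 24 hours turned without 24-hour replicate 2.

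Bak1 (ENSMUSG00000057789.13, chr17:27019810-27029009, minus strand), the other effector, had its highest group mean in spleen, with 35.3, 23.6 and 20.9 CPM. It had 11.4, 16.8, 5.66 and 25.5 CPM at 24 hours and 16.8, 24.5, 18.9, 10.4 and 11.7 CPM at 72 hours, so both liver groups overlapped spleen through 1 library. The log2 fold changes were -0.84 at 24 hours (95% interval -1.71 to 0.03, edgeR adjusted p = 0.210) and -0.66 at 72 hours (-1.47 to 0.15, edgeR adjusted p = 0.427). The times differed by 0.18 (edgeR adjusted p = 0.837). Bak1 is the 1 gene of the 9 whose exons overlap those of a gene on the opposite strand, Ggnbp1, over 437 bases. Ggnbp1 had 480 to 1590 counts per library, against 8 to 76 for Bak1, and stood at 348 to 576 CPM in spleen, 612 to 837 CPM at 24 hours and 333 to 563 CPM at 72 hours.

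Counting the groups that did not overlap gave 3 of the 9 genes at 24 hours against spleen, Mcl1 and Bcl2l11 above it (9.76% of tested genes) and Bbc3 below it (13% of tested genes). At 72 hours it gave 2, Mcl1 and Bcl2l1, both above spleen (5.59% of tested genes were above and 6.37% below). Between the times no gene of the 9 had groups that did not overlap (4.49% of tested genes were higher and 5.02% lower).

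**Figure D3:**
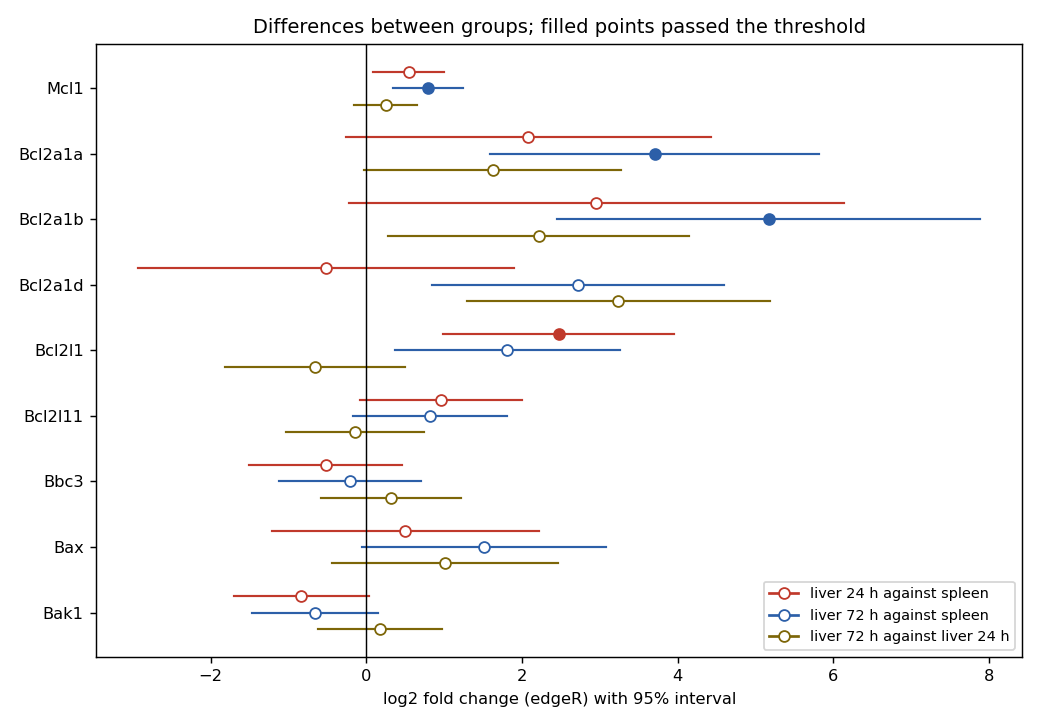
Log2 fold changes (edgeR, horizontal axis) of the 9 genes with 95% intervals for 24-hour neutrophils against spleen (red), 72-hour neutrophils against spleen (blue) and 72-hour against 24-hour neutrophils (brown). Filled points passed the threshold: Mcl1, Bcl2a1a and Bcl2a1b at 72 hours and Bcl2l1 at 24 hours. The intervals of the Bcl2a1 copies are the widest, and those of Bcl2a1a and Bcl2a1b rest on 4 and 1 counts in spleen.

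Levels per length in the count table were dominated by 1 gene. Because the strand setting of the counter is not given, ranks between genes, like the fold changes and calls, describe the table and need not be those of expression. In RPKM (CPM per kilobase of annotated exon, averaged over the 12 libraries), Mcl1 stood at 155, above 95.9% of tested genes. Bak1 followed at 7.66, Bcl2a1a at 4.70, Bbc3 at 4.08, Bcl2a1d at 3.77 and Bcl2a1b at 3.75. Bax was at 2.18, Bcl2l1 at 1.80 and Bcl2l11 at 1.18. Below Mcl1 the ranges of neighbours in this order overlapped over libraries, and the levels of the Bcl2a1 copies leave out the reads that match several copies. Those of Bcl2a1b and Bax may also leave out reads on exons shared with Gm29094 and Gm45808. Exons of all annotated transcripts were counted in the length, which lowers the RPKM of genes with long alternative exons such as Bcl2l11.

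The summed RPKM of the 5 anti-apoptotic genes was 98.7 to 123 in spleen, 138 to 193 at 24 hours and 167 to 251 at 72 hours. That of the 4 pro-apoptotic genes was 15.8 to 21.03, 7.38 to 16.2 and 11.2 to 22.3. The ratio of the sums was 4.69, 6.70 and 7.55 in the spleen libraries, 8.68 to 18.7 at 24 hours and 8.85 to 18.8 at 72 hours, so each liver library had a higher ratio than each spleen library. Mcl1 made up 79.5% to 98.7% of the anti-apoptotic sum, and the ratio is mainly that of Mcl1 to Bak1 and Bbc3. Mcl1 over Bak1 alone gave 6.60 to 13.9 in spleen, 12.7 to 53.5 at 24 hours and 15.6 to 48.0 at 72 hours, where 24-hour replicate 4 lay within the spleen range. The ratios describe counts per length in the table, with the same limit of the unknown strand setting, and were not tested. Other effector and BH3-only genes do not enter the sums. Among them are Pmaip1, called higher at 72 hours than in spleen, and Bnip3l, called lower at 24 hours. A ratio with such genes was not computed, so these ratios are of the chosen genes only. Exons of Bak1, a large part of the pro-apoptotic sum, overlap those of Ggnbp1 on the opposite strand.

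**Figure D4:**
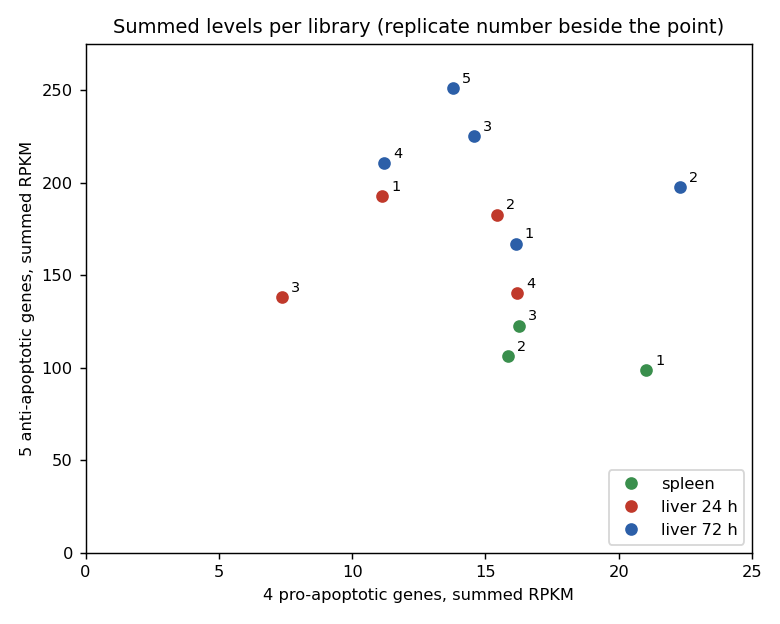
Summed RPKM of the 5 anti-apoptotic genes (vertical axis) against that of the 4 pro-apoptotic genes (horizontal axis), 1 point per library with its replicate number, in control splenic (green), 24-hour (red) and 72-hour (blue) neutrophils. The spleen points lie lowest on the vertical axis, at 98.7 to 123, and the groups overlap on the horizontal axis.

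The rest of the pathway was read from 7 lists, with 68 genes counted here, 55 of which were tested. Against spleen 3 were called higher and 1 lower at 24 hours (7.27%) and 2 higher and 0 lower at 72 hours (3.64%), and between the times 2 were higher and 1 lower (5.45%), beside the 9.75%, 5.33% and 4.49% of all tested genes. The single tested anti-apoptotic gene outside the 9, Bcl2, did not pass in any comparison, nor did any of 8 tested inhibitors of apoptosis, 6 p53 and FOXO regulators or the 11 caspase and apoptosome genes counted here. Over the 3 comparisons together, calls were made in 2 of 6 tested effector and BH3-only genes, 1 of 9 death receptor genes and 4 of 14 genes of survival cytokine receptors and kinases. The shares above are per comparison and cannot be set beside these pooled counts. A pooled share of all tested genes is not given here, so no excess is read from the pooled counts. Per comparison, the effector and BH3-only list had 1 call each time. The survival cytokine list had 2 calls at 24 hours, 1 at 72 hours, and 1 higher and 1 lower between the times.

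Among the BH3-only genes, Pmaip1, which encodes NOXA, a direct antagonist of MCL-1, had 12.1, 16.7 and 25.1 CPM in spleen and 34.7, 19.8, 38.2 and 41.6 CPM at 24 hours. It had 106, 118, 125, 43.8 and 45.4 CPM in 72-hour replicates 1 to 5, all above every other library, with replicates 1 to 3 highest. It was higher at 72 hours than in spleen (log2 fold change 2.29, standard error 0.39, edgeR adjusted p = 0.000785), a call kept in each of the 12 fits without 1 library. It was also higher at 72 than at 24 hours (1.40, edgeR adjusted p = 0.0233), a call lost without 24-hour replicates 1 or 2 or 72-hour replicates 1, 2 or 3 (edgeR adjusted p up to 0.0883) and with 72-hour replicates 2 and 3 both left out (0.97, 0.189). At 24 hours against spleen its 0.89 did not pass (edgeR adjusted p = 0.160).

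Bnip3l, which encodes the mitophagy receptor NIX, had 29.2, 12.7 and 7.40 CPM in spleen, 3.78, 5.40, 3.54 and 2.92 CPM at 24 hours and 5.87 to 7.79 CPM at 72 hours. It was lower at 24 hours than in spleen (-2.03, standard error 0.49, edgeR adjusted p = 0.0108), although without spleen replicate 1 the value was -1.33 (edgeR adjusted p = 0.159) and limma-voom did not call it (-1.69, adjusted p = 0.0571). Spleen replicates 1 and 2, the highest for Bnip3l, also had the highest sums of immature neutrophil markers, and the part of these cells in this result was not tested. Among the death receptor genes Tnf, a cytokine that can trigger death or survival, was called at 24 hours (1.82, edgeR adjusted p = 0.0411), with 4.24 to 36.6 CPM in groups that overlapped spleen, and 7 of the 12 fits that dropped a library did not call it (every spleen library, 24-hour replicates 1, 2 and 4 and 72-hour replicate 1, edgeR adjusted p up to 0.147), nor did limma-voom (1.74, adjusted p = 0.0867) or the fit of those groups alone (1.83, edgeR adjusted p = 0.0725). At 72 hours its 0.99 did not pass (edgeR adjusted p = 0.370).

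Pim1, a survival kinase induced by cytokines, and Socs3, the feedback inhibitor of the G-CSF receptor, are from the survival cytokine list. Pim1 had 58.5 to 67.4 CPM in spleen, 254 to 398 CPM at 24 hours and 151 to 493 CPM at 72 hours, with no overlap with spleen. Its log2 fold changes of 2.28 (edgeR adjusted p = 0.000134) and 2.30 (edgeR adjusted p = 9.8e-05) were kept in each of the 12 fits without 1 library, but its exons overlap those of a gene on the opposite strand. Socs3 had 50.5 to 110 CPM in spleen and 165 to 194 CPM at 24 hours, where it was higher than in spleen (1.02, edgeR adjusted p = 0.0133). At 72 hours it had 135 to 178 CPM, also above every spleen library, and its 0.81 did not pass (edgeR adjusted p = 0.0601).

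The receptor Csf3r, through which G-CSF prolongs neutrophil life, had 463 to 569 CPM in spleen, 278 to 404 CPM at 24 hours and 461 to 710 CPM at 72 hours. It was higher at 72 than at 24 hours (0.77, edgeR adjusted p = 0.0241), a call lost without 24-hour replicates 1, 3 or 4 or 72-hour replicates 1 or 3 (edgeR adjusted p up to 0.0702) and with 72-hour replicates 2 and 3 both left out (0.121). Csf2rb2, a receptor subunit for interleukin-3, had 11.9 to 23.7 CPM in spleen, 58.0, 55.2, 26.2 and 22.6 CPM at 24 hours and 9.22 to 22.5 CPM at 72 hours. It was lower at 72 than at 24 hours (-1.43, edgeR adjusted p = 0.0210), which was lost without 24-hour replicates 1 or 2 or 72-hour replicate 1 (edgeR adjusted p up to 0.0916), and its near-copy Csf2rb was not called. Against spleen neither the 1.17 of Csf2rb2 at 24 hours (edgeR adjusted p = 0.0653) nor the -0.26 at 72 hours (edgeR adjusted p = 0.823) passed.

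**Figure D5:**
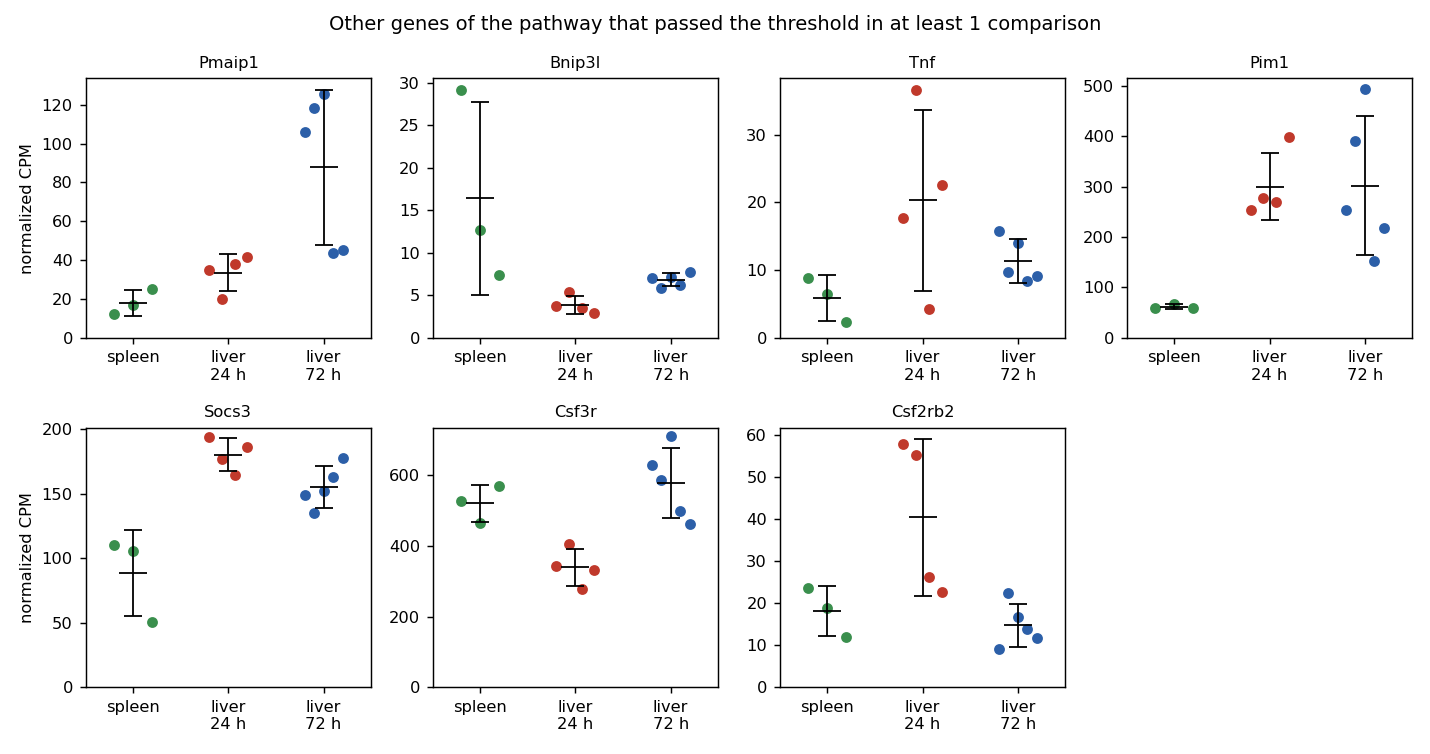
Normalized CPM (linear axis) of the 7 pathway genes named here that were called in at least 1 comparison, in control splenic (green, n = 3), 24-hour (red, n = 4) and 72-hour (blue, n = 5) neutrophils, 1 point per library in the order of the replicate number, with the mean ± SD. Pmaip1 is highest at 72 hours (43.8 to 125), Pim1 is higher in all liver than in all spleen libraries, and Csf3r is lowest at 24 hours (278 to 404).

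For the 4 called genes, the most similar profiles over the 12 libraries were picked among 12487 tested genes by the Pearson correlation of log2 CPM. Mcl1 was most like Cd33 (r = 0.91), Klf6 (0.90) and Picalm (0.90), and Bcl2l1 was most like Ube2d3 (0.93), Plek (0.89) and Cdc25b (0.89). Bcl2a1a was most like Chn2 (0.91), Ovca2 (0.89) and Rnf34 (0.88), and Bcl2a1b was most like Rgs1 (0.92), Cd34 (0.92) and Gm13075 (0.91). The libraries share group and depth differences, and with so many genes searched these values are descriptions.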

How the data were processed

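The authors sequenced stranded mRNA libraries of sorted neutrophils as paired reads of 100 bases. Reads were aligned to GRCm38 (STAR 2.7.9a in the submitters' processing notes) and counted per gene with HTSeq-count, with a strand setting that is not given in the sources used here. The authors deposited raw counts per gene, 1 column per library, and 0 value columns had no sample. The 5 summary rows (reads on no gene, on more than 1 gene, of low quality, unaligned or at several places) did not enter library sizes or tests. Between 2.71% and 3.18% of the unique reads of a library were on a gene. The library totals of 1267089 to 3017403 counts set the precision.

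Names, positions and exon lengths came from GENCODE M21 (48349 rows matched), and promoter sequences from RefSeq. All 12 libraries entered 1 fit with edgeR 4.0.16 (R 4.3.3): genes with more than 1 CPM in at least 3 libraries (12488), TMM factors, glmQLFit and glmQLFTest on group, and Benjamini-Hochberg adjustment over all tested genes. Normalized CPM used the TMM-scaled library size. Calls needed an adjusted p below 0.05 and a log2 fold change of at least 0.5 in size. Fitted values use edgeR's own prior, and likeness used a prior count of 2. A gene with 3 counts or fewer in every library of a group was treated as at the floor. The steps were tested on simulated data.

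The members, the pathway and marker lists and the tests were chosen with earlier results of these data known. All 9 genes are named whatever their values, of the other pathway genes those called in at least 1 comparison (1 listed gene is not reported here and does not enter the counts of its list), and for each called member the 3 tested genes most like it. Alternatives were DESeq2 1.42.0 (Wald test), its size factors, upper-quartile scaling, limma-voom (limma 3.58.1, the authors' own method), other filters and fold limits, fits of 2 groups, a replicate block, and leaving out libraries. Libraries that share a replicate number did not clearly deviate together. Over 10 such pairs the correlation of deviations from group means was -0.12 to 0.13, with 1 above 0.1. Over the 37 pairs with different numbers it was -0.15 to 0.16, with 3 above 0.1. These values cannot exclude a pairing.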

Additional observations from a re-analysis of the deposited data

Results flagged for a closer look

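Among 20 checks of a group of 4 or 5 libraries (the 9 genes and the Bcl2a1 sum), 1 library stood far from the others, where chance gives about 1. It was 24-hour replicate 3 for Bcl2a1d, at 2.83 CPM (4 counts), while the other libraries of its group were at 0.

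Of the other pathway genes, 3 differed between 72-hour and 24-hour neutrophils by the edgeR test of that difference. They were 5.45% of the 55 tested, beside 4.49% of all tested genes. The log2 difference was 1.40 for Pmaip1 (edgeR adjusted p = 0.0233), 0.77 for Csf3r (edgeR adjusted p = 0.0241) and -1.43 for Csf2rb2 (edgeR adjusted p = 0.0210). All 5 of the 72-hour libraries lay above all 4 of the 24-hour libraries for Pmaip1 and for Csf3r, and below them for Csf2rb2. Of all tested genes, 4.49% lay wholly above and 5.02% wholly below in this way. So did some listed genes that were not called between the times, such as Bnip3l.

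In the summary rows, which no comparison used, 3 values were more than 2 times the highest spleen library. The share of unique reads on more than 1 gene was 0.227% in 24-hour replicate 4, against at most 0.0271% in spleen. The share of aligned reads at several places was 7.81% in 72-hour replicate 2 and 8.38% in 72-hour replicate 3, against at most 2.25% in spleen. These 72-hour libraries also held the most counts of the Bcl2a1 copies, and the part of that share in those counts was not tested.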

How the results depend on the processing

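Of the 616 fitted differences of the 9 genes under other settings, 569 kept their direction and their side of the threshold, 25 fell below it, 13 passed it and 9 changed sign. The count of genes called at 24 hours (1 in the main fit) was 0 with limma-voom and in the fit of those 2 groups, and 0 to 1 when 1 library was left out. At 72 hours (3) it was 4 with DESeq2's Wald test, 2 with limma-voom (Mcl1 and Bcl2a1b), 2 with filterByExpr (Mcl1 and Bcl2a1a) and 5 without a filter. It was 0 with 72-hour replicates 2 and 3 left out and 0 to 4 when 1 library was left out. Between the times (0) it was 1, in each case Bcl2a1d, with DESeq2's Wald test, limma-voom, no filter and filterByExpr, and 0 to 1 when 1 library was left out. filterByExpr removed Bcl2a1b, which then had no test. Bcl2a1d was in the main test only through the 72-hour libraries, so its calls are descriptions. DESeq2's size factors in edgeR, upper-quartile scaling and no fold limit changed no call of the 9 genes, and a fold limit of 1 lost Mcl1 at 72 hours.

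No pairing by replicate number was seen in the correlations between libraries, which cannot exclude it in groups this small. With the replicate block, the count between the times was 1 (Bcl2a1d, edgeR adjusted p = 0.0363), and at 72 hours Mcl1 was lost (0.67, edgeR adjusted p = 0.111) while Bcl2a1d passed (3.11, edgeR adjusted p = 0.0312). The block changed no other call of the 9 genes.

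The signs that changed were of differences that had not passed. At 24 hours Bcl2a1d was -4.17 to 0.23 over the fits without 1 library, with the low end without 24-hour replicate 3 and the high end without spleen replicate 2, and Bax was -0.39 to 1.27, with the low end without 24-hour replicate 2. At 72 hours Bbc3 was -0.43 to 0.0047, with the high end without 72-hour replicate 3, and 0.0031 without replicates 2 and 3. Between the times Bcl2l11 was -0.53 to 0.086 and Bak1 was -0.089 to 0.55, and Bak1 was -0.18 without 72-hour replicates 2 and 3. The cause was not tested. Depth limits the Bcl2a1 copies, Bcl2l1 and Bax most, with 0 to 55, 2 to 41 and 1 to 22 counts per library.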

Other observations

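Within the 72-hour group, replicates 4 and 5 lay all above or all below replicates 1 to 3 for 8 of the 9 genes, a split noticed after the values were seen. They were higher for Mcl1 (710 and 794 against 496 to 612 CPM), Bcl2l1 and Bbc3, and lower for Bcl2a1a, Bcl2a1b, Bcl2l11, Bax and Bak1 (10.4 and 11.7 against 16.8 to 24.5 CPM). The exception was Bcl2a1d. Of all 12488 tested genes, 36% split these libraries in the same way in either direction. The labels give no batch for these libraries.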
